A study of Mus musculus with 9 samples.

Results

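The genes described here were the insulin-like growth factors, their receptor and their binding proteins: *Igf1*, *Igf2*, *Igf1r*, *Igfbp2*, *Igfbp3*, *Igfbp4*, *Igfbp5*, *Igfbp6* and *Igfbp7*. They were taken by symbol from the gene list that accompanies each count matrix, and all 9 were found among 54534 listed features. The data were 9 single-cell libraries of mouse knee synovial joint cells, made with a 5′ droplet kit that counts unique molecular identifiers (UMIs), and 4788 of 5161 barcodes passed the filters on cells.

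All mice were *Gdf5-Cre;Tom;Pdgfrα-H2BGFP* animals, 11 to 12 weeks old, so every group carried the *Gdf5-Cre* driver, the tdTomato reporter and the nuclear GFP reporter. Tom+ cells are the descendants of cells that expressed *Gdf5* in the embryonic joint interzone. Tom-GFP+ cells lacked that history and were sorted on the *Pdgfrα* reporter, which limits them to *Pdgfrα*-expressing cells. Tom+ cells were taken in steady state (naive mice, n = 2 libraries) and 6 days after a joint surface injury (n = 4), and Tom-GFP+ cells in steady state (n = 1) and after injury (n = 2). The injury was an arthrotomy of the right knee with a full-thickness scratch of the cartilage of the trochlear groove. The labels number the libraries without naming mice. The study counts n = 2 and n = 4 mice for Tom+ cells and calls the n = 1 and n = 2 Tom-GFP+ mice matched. Whether matched libraries came from the same mouse is not given in the sources used here. Nor is it given which Tom+ library each Tom-GFP+ library is matched to. The matching was therefore not used, and the contrasts of state and lineage treated the libraries as independent.

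IGF1 and IGF2 are secreted growth factors that act through the receptor tyrosine kinase IGF1R, and in connective tissue they promote proliferation, survival and matrix synthesis. Most IGF in tissue fluid is held by IGF-binding proteins (IGFBPs), which can keep the ligand from its receptor, carry it or hold it in the matrix, and proteases such as PAPP-A, PAPP-A2 and HTRA1 cleave particular IGFBPs and free it. IGFBP6 binds IGF2 in preference to IGF1, IGFBP5 binds to extracellular matrix, and IGFBP7 binds IGFs only weakly.

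Cells were assigned to classes by the number of markers they expressed, none of which is an IGF gene. The names used below stand for these gates. Sublining-like fibroblasts (*Thy1*, *Cd34*, *Ly6a*, *Clec3b*; 2698 cells) include universal-like fibroblasts (*Dpp4*, *Pi16* and others; 815 cells, 677 of them not better matched to the next gate), injury-induced cells (*Lrrc15*, *Adam12*, *Tnc* and others; 932 cells) and the remaining sublining cells (1089). Lining-like fibroblasts needed both *Clic5* and *Tspan15* (626 cells), and *Prg4*+ *Clic5*- cells had *Prg4* without *Clic5*, *Tspan15* or *Thy1* (283). Smaller classes were tenocyte-lineage (270), immune (106), mural (93), osteoblast-lineage (89) and chondrocyte-lineage (87) cells. Levels are given as CPM, the UMIs of a gene in the summed cells of a class in 1 library scaled to a common total for every sum, where a sum held at least 10 cells.

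The libraries held 277 to 826 kept cells each, with 2866464 to 15033902 UMIs in all. Median depth was 8050.5 to 8647 UMIs a cell in the 3 steady-state libraries and 12223 to 18567 in the 6 injured libraries. The 36 pairs of libraries shared 14 barcodes. In sublining fibroblasts tdTomato was at 280.6 to 639 CPM in Tom+ and at 2.61 to 6.68 CPM in Tom-GFP+ libraries. The summed markers of each class were higher in its own cells in every library. The lowest library was at 1.68-fold for the sublining list and at 1001-fold for the immune list. Cells were gated on these same lists, so a higher level was set by the gates and is no independent check. For this comparison *Prg4*+ *Clic5*- cells were set against sublining cells alone. All steady-state libraries and 1 injured library (Tom+ injured replicate 1) came with an older form of the gene list and the other 5 with a newer one, so the injury contrast largely coincides with that format. At this size the edgeR test recovered 74% of simulated 4-fold and 14% of simulated 2-fold changes between Tom+ injured and steady-state sublining fibroblasts, and 100% and 83% between lining and remaining sublining cells.

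The members lie on 6 chromosomes of the GRCm38 mouse genome, each at the position of its GENCODE gene. *Igf1* lies on chromosome 10 at 87858265 to 87937042 (+ strand). *Igf2* is at 142650766 to 142666816 of chromosome 7 (−), 72622 bases from the imprinted non-coding RNA gene *H19* (142575529 to 142578143, −). *Igf1r* is also on chromosome 7, at 67952827 to 68233668 (+). *Igfbp2* (chromosome 1, 72824503 to 72852474, +) and *Igfbp5* (72857932 to 72874884, −) are tail-to-tail neighbours with 5457 bases between them. *Igfbp3* (7206086 to 7213923, −) and *Igfbp4* (99041244 to 99054392, +) are on chromosome 11, *Igfbp6* on chromosome 15 (102144362 to 102149511, +) and *Igfbp7* on chromosome 5 (77349240 to 77408041, −).

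*Igfbp3*, *Igfbp5* and *Igfbp6* were the members that were lower after injury, so the sequences directly upstream of their RefSeq starts are shown, 5′ to 3′ on the gene's strand and trimmed to bases outside every annotated exon. RefSeq promoter entries matched all 9 members (13 entries, GRCm38.p6). Capitals mark matches to TATAAA or CCAAT on either strand.
Igfbp3, chr11:7213924-7214173 (− strand): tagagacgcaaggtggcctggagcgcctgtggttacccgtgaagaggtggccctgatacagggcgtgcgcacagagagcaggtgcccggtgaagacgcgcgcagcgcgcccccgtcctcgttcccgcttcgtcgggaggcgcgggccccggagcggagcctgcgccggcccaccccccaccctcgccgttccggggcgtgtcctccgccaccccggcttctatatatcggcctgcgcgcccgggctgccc
Igfbp5, chr1:72874885-72875115 (− strand): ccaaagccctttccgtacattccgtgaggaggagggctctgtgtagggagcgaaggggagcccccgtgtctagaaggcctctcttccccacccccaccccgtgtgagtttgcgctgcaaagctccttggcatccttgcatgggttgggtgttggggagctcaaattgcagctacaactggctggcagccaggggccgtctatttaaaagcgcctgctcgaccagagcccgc
Igfbp6, chr15:102143936-102144185 (+ strand): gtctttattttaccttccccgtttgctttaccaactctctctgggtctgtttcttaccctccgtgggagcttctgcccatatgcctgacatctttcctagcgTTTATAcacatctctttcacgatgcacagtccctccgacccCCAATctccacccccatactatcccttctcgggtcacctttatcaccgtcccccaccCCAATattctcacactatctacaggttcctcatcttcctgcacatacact
The *Igfbp6* stretch held 1 TATAAA match, read as TTTATA, 148 bases before its end, and CCAAT at 107 and 50 bases before its end. That stretch ends at 102144185, short of the GENCODE start of the gene at 102144362, so these are not distances to that start. The *Igfbp3* and *Igfbp5* stretches adjoin their GENCODE genes. The *Igfbp3* and *Igfbp5* stretches held no exact match to the 5 motifs searched. Near matches, such as tatata or tttaaa, were not counted, so a TATA-like element is not excluded. Among 32851 promoter stretches of 250 bases, TATAAA was present in 12.4%, CCAAT in 33.8%, GGGCGG in 32.7%, TGTTTAC in 3.17% and TGACTCA in 4.46%, each counted on both strands.

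Of the ligands, *Igf1* was abundant and *Igf2* was nearly absent. Over all kept cells *Igf1* had 35547 UMIs in 2877 of 4788 cells, and *Igf2* had 48 UMIs in 35 cells. In sublining fibroblasts *Igf2* was at 0 to 2.97 CPM across the 9 libraries, and in no library of any class did it exceed 9.27 CPM among sums of at least 10 cells. Immune cells, *Prg4*+ *Clic5*- cells and osteoblast-lineage cells held no *Igf2* UMI in the libraries used. *Igfbp2* was similarly sparse, with 147 UMIs in 63 cells. Its level in sublining sums was 0 to 7.08 CPM, and it reached 45.6 CPM in the mural cells of Tom+ injured replicate 1 and 21.3 CPM in the lining cells of Tom+ steady-state replicate 2. Only 2.5% of those 40 mural cells and 3.57% of those 28 lining cells held an *Igfbp2* UMI, so these levels do not describe the classes. No fold is given for either gene.

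*Igf1* separated the lining from the sublining without overlap. In lining fibroblasts it was at a median of 12.0 CPM over 8 libraries (2.36 to 48.5), in *Prg4*+ *Clic5*- cells at 397.8 (120.9 to 793), and in the remaining sublining fibroblasts at 950.9 over 9 libraries (636.7 to 2552). The ranges of lining and remaining sublining cells did not overlap, and *Igf1* was lower in lining cells in 8 of 8 libraries. Against the remaining sublining cells of the same libraries, the log2 fold change was −6.29 ± 0.38 (SE; edgeR adjusted p = 7.27e-20) in lining cells and −1.74 ± 0.30 (adjusted p = 7.30e-05) in *Prg4*+ *Clic5*- cells. The latter value was −3.42 with 1 marker more for every gate and −0.70, not called, in steady-state libraries alone (adjusted p = 1). Thus 1 of 7 tested members was lower in *Prg4*+ *Clic5*- cells, where 3.28% of all genes were called lower.

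A group of 209 cells reached the lining list with 1 or neither of *Clic5* and *Tspan15*; this gate was set after the cells had been seen. Their *Igf1* level lay between those of lining and *Prg4*+ *Clic5*- cells in every library that had all 4 gates. In Tom+ steady-state replicate 2 the levels were 2.36, 77.7, 498 and 783.8 CPM from lining through that group and *Prg4*+ *Clic5*- cells to remaining sublining cells. In Tom+ injured replicate 4 they were 48.5, 305.9, 783.2 and 2552 CPM, and in Tom-GFP+ injured replicate 2 they were 29.3, 299.1, 793 and 2014 CPM. The order held in 7 of 7 libraries for *Igf1*, and in 0 to 4 of 7 for each of the other members. By cells, 3.57 to 48.6% of lining cells had an *Igf1* UMI (2.20 to 14.7% when each cell was thinned to 5000 UMIs, 9 shallower cells left out), at median depths of 13969 to 21665 UMIs. In sublining cells the share was 64.2 to 93.0% (48.5 to 89.4% thinned, 267 cells left out) at 8023 to 19889.5 UMIs. Immune cells, which include macrophages that can express *Igf1*, had 12.6 to 131.2 CPM. In mural cells, taken here as the guide to free RNA, the share was 0 to 20% (0 to 2.70% thinned) at median depths of 7762 to 12023.5 UMIs.

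**Figure D1:**
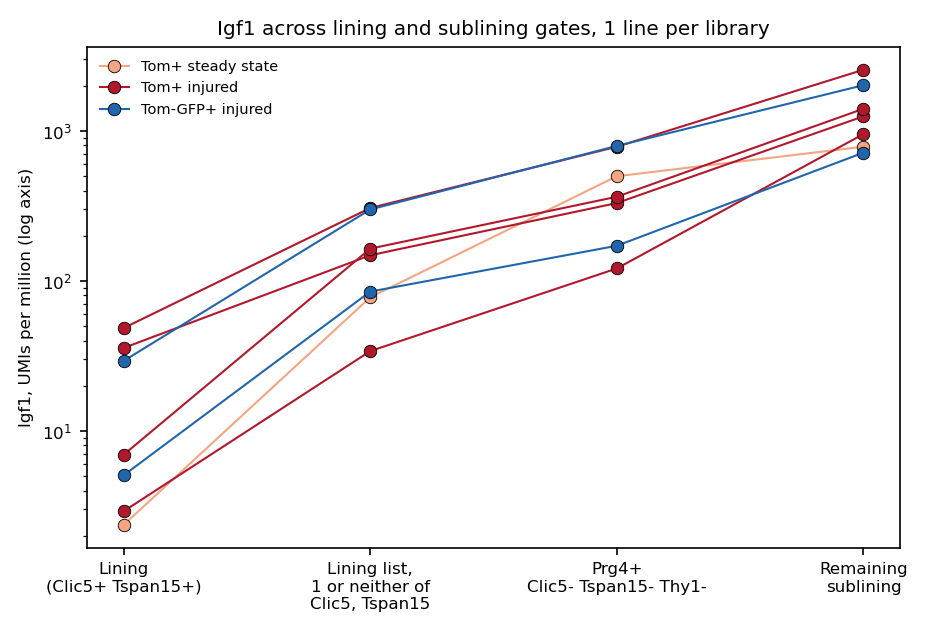
*Igf1* level (CPM, log axis) in 4 gates from lining to remaining sublining fibroblasts, with 1 line for each of the 7 libraries that had at least 10 cells in every gate and colours for the group. Every line rises from left to right, from 2.36 to 48.5 CPM in lining cells to 715.2 to 2552 CPM in remaining sublining cells.

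Elsewhere in the joint *Igf1* was abundant in tenocyte-lineage cells and at 0 or low in cartilage, bone and vessel wall cells. Tenocyte-lineage cells had 632.1 to 2326 CPM (median 1233, n = 8 libraries), a range that overlapped that of the remaining sublining cells, and their log2 difference from those was 0.12 ± 0.28 (adjusted p = 0.895). Chondrocyte-lineage cells had 0 to 32.1 CPM and mural cells 0 to 30.8 CPM, from 7 UMIs each. Osteoblast-lineage cells had 12.2 to 134.4 CPM. These 3 classes lay below the remaining sublining cells with log2 fold changes of −7.06, −7.30 and −4.26 (adjusted p = 7.13e-13, 1.68e-11 and 1.11e-08). With cells named by graph clusters instead of gates, the osteoblast-lineage difference was −0.75 (adjusted p = 0.0543). That cluster was wider than the gate: it held 345 cells, and the gate most common among them was the sublining one (32.5%).

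Within the sublining, *Igf1* was lower in universal fibroblasts, at 283.6 to 1657 CPM, than in the remaining cells of 9 of 9 libraries, by 0.97 ± 0.27 on the log2 scale (log2 fold change −0.97, adjusted p = 0.00998). The call was lost with gates on cells thinned to 5000 UMIs (−0.65, adjusted p = 0.109) and in steady-state libraries alone (−1.14, adjusted p = 0.0572). Injury-induced cells had 249.9 to 1507 CPM and were below the remaining sublining cells in 6 of 6 libraries (−0.91 ± 0.31, adjusted p = 0.0444). That call was the only 1 of 7 members in injury-induced cells, where 7.19% of all genes were called lower, and it was lost without 7 of the 9 libraries in turn (all but Tom+ steady-state replicate 2 and the Tom-GFP+ steady-state library, adjusted p 0.0560 to 0.165), under DESeq2 (0.109) and with gates on cells thinned to 5000 UMIs (−0.49, adjusted p = 0.5676).

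Injury moved the *Igf1* level in sublining fibroblasts by less than the spread between libraries. In Tom+ cells it was at 726.9 and 567.2 CPM in steady state, and at 452.8, 972.9, 807.6 and 1844 CPM after injury. In Tom-GFP+ cells it was at 453 CPM in steady state and at 346.3 and 1439 CPM after injury. The groups overlapped in Tom+ cells, where injured replicate 1 was the lowest library and injured replicate 4 the highest, and in Tom-GFP+ cells the steady-state value lay between the injured ones. The log2 fold change was 0.63 ± 0.62 (adjusted p = 0.525) in Tom+ and 0.97 ± 0.90 (adjusted p = 0.576) in Tom-GFP+ cells. The sign turned in the fits that took account of the format of the gene list. With that format as a term the Tom+ value was −0.55, and among older-format libraries alone −0.49. Both values rest on Tom+ injured replicate 1, the only injured library of the older format, so format and library cannot be told apart. Of its sublining cells 79.9% were injury-induced and 24.0% cycling, the largest shares of any library.

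**Figure D2:**
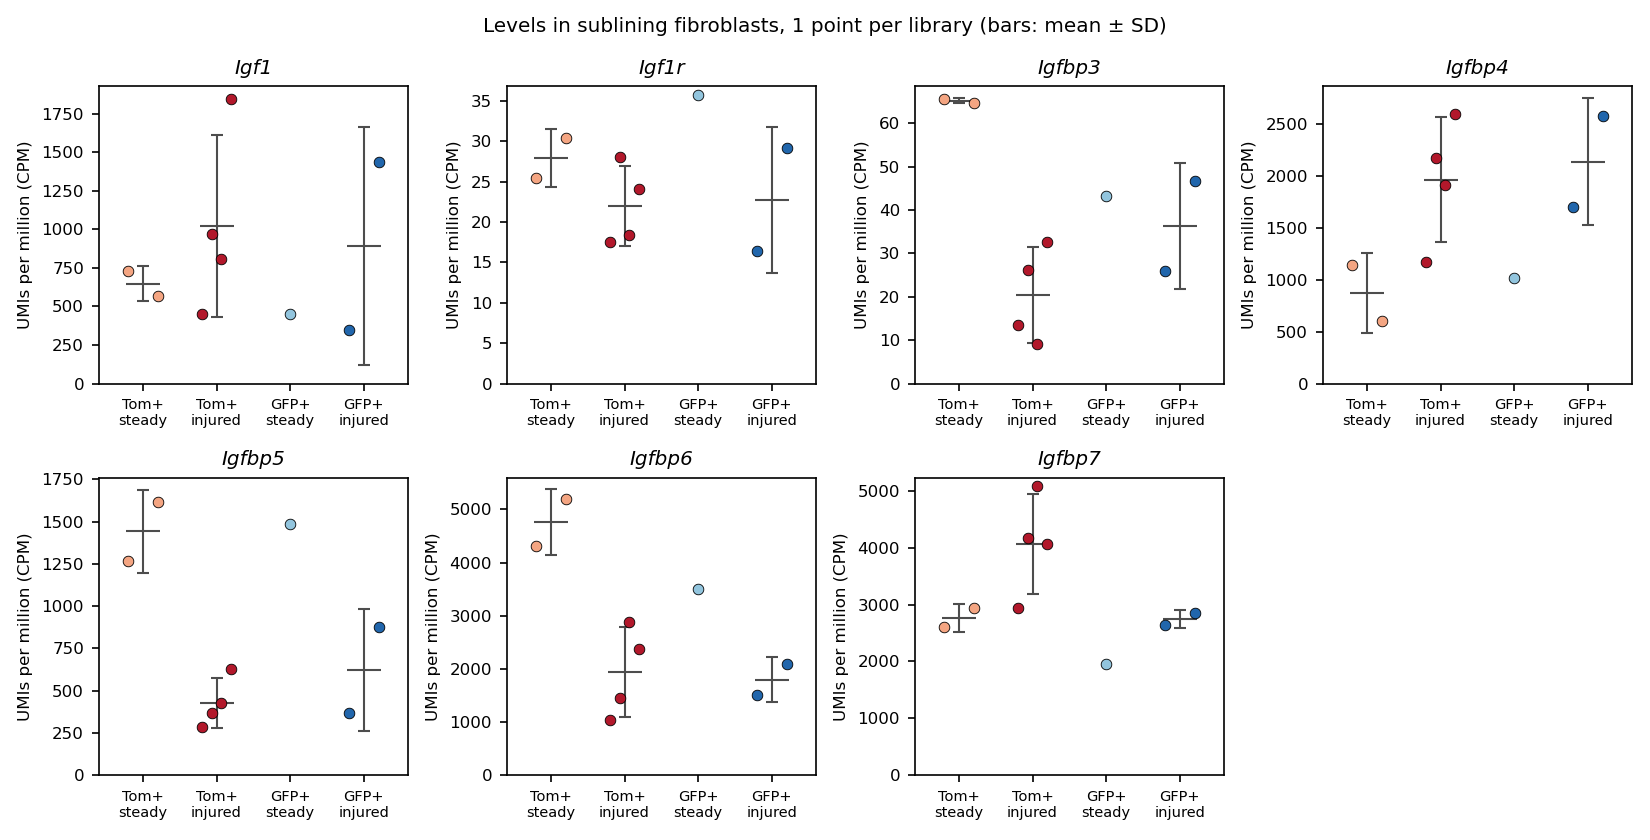
Level of 7 members (CPM) in sublining fibroblasts, with 1 point for each of the 9 libraries and bars for the mean and SD of a group, where GFP+ on the axis stands for Tom-GFP+. *Igfbp3*, *Igfbp5* and *Igfbp6* are lower in all 4 Tom+ injured than in both Tom+ steady-state libraries, *Igfbp4* and *Igfbp7* are higher in all 4, and *Igf1* and *Igf1r* overlap.

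The receptor gene *Igf1r* was low and even. It had 1455 UMIs in 1183 of 4788 cells, and its median level was between 18.0 and 31.8 CPM in each of the 10 mesenchymal classes described. Among tested class contrasts with the remaining sublining cells, *Igf1r* was called in 0 of 8 by edgeR and in 0 by DESeq2, with 0 at an unadjusted p below 0.05 by edgeR. Its log2 fold changes ran from −0.52 ± 0.41 in mural cells to 0.23 ± 0.19 in universal fibroblasts. In sublining fibroblasts it was at 25.4 and 30.4 CPM in Tom+ steady state and at 17.5, 28.1, 18.4 and 24.0 CPM after injury. In Tom-GFP+ cells it was at 35.7 CPM in steady state and at 16.4 and 29.2 CPM after injury. The Tom+ groups overlapped, and the log2 fold changes of −0.38 ± 0.29 (adjusted p = 0.398) and −0.70 ± 0.40 (adjusted p = 0.354) did not pass the test.

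The binding proteins divided the cell classes in different ways. In lining fibroblasts 5 of 7 tested members were lower than in remaining sublining cells, where 22.4% of all genes were called lower, and 1 was higher, where 18.2% were called higher. *Igfbp5* was the higher one, with a median of 1287 CPM in lining (621.8 to 2757) against 569.5 in remaining sublining cells (246.5 to 1244) and a higher level in 8 of 8 libraries (log2 fold change 1.04 ± 0.35, adjusted p = 0.0130; 0.0844 in injured libraries alone). *Igfbp6* was at a median of 563.3 CPM in lining (348.6 to 993.1) and 1882 in remaining sublining cells (1066 to 3915), without overlap and with −1.91 ± 0.27 (adjusted p = 5.04e-08). *Igfbp7*, a matrix-associated member, was lower in lining in 8 of 8 libraries (median 2120 against 3915 CPM, −1.25 ± 0.22, adjusted p = 4.92e-06; 0.0892 in steady-state libraries alone). *Igfbp3* had 6 UMIs among 10960436 in lining cells and was at 13.04 to 105.1 CPM in remaining sublining cells (−5.81 ± 0.75, adjusted p = 5.21e-09). *Igfbp4* was lower in lining by a small margin (−0.65 ± 0.26, adjusted p = 0.0421); leaving out any 1 of the 6 injured libraries lost that call (adjusted p 0.0573 to 0.142), and in steady-state libraries alone the value was 0.38.

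Universal fibroblasts had the opposite sign of lining cells for *Igfbp6* and the same for *Igfbp5*. Of 7 tested members, 2 were higher in them than in the remaining sublining cells, where 5.28% of all genes were called higher, and 3 were lower, where 5.26% were called lower. *Igfbp5* was at 1080 to 2113 CPM in universal cells not better matched to the injury-induced gate and higher in 9 of 9 libraries (1.43 ± 0.34, adjusted p = 0.00210). *Igfbp6* was at 2766 to 6942 CPM and also higher in 9 of 9 (0.89 ± 0.25, adjusted p = 0.0120; 0.0675 with graph clusters and 0.104 in steady-state libraries alone). *Igfbp7* was lower in 9 of 9 libraries (1083 to 4386 CPM, −0.85 ± 0.21, adjusted p = 0.00326; 0.201 in steady-state libraries alone) and *Igfbp3* in 8 of 9 (1.78 to 34.7 CPM, −1.47 ± 0.43, adjusted p = 0.0166). The *Igfbp3* call was lost under DESeq2 (adjusted p = 0.205) and when Tom+ steady-state replicate 1 or 2, the Tom-GFP+ steady-state library or Tom+ injured replicate 2 was left out (0.0503 to 0.0941). *Igfbp4* was shared by both compartments: 579.5 to 3305 CPM in universal and 602.5 to 2853 CPM in remaining sublining cells, with ranges that overlapped (0.17 ± 0.25, adjusted p = 0.802).

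Skeletal and vessel wall cells were lower for several binding proteins, while *Igfbp7* was called in none of them. Chondrocyte-lineage cells were lower for 5 of 7 members, where 18.3% of all genes were called lower, and osteoblast-lineage cells for 4 of 7, where 8.07% were. *Igfbp6* was at 10.1 to 166.9 CPM in chondrocyte-lineage cells (log2 fold change −5.48 ± 0.46, adjusted p = 2.16e-14) and at 79.5 to 1813 CPM in osteoblast-lineage cells (−2.09 ± 0.38, adjusted p = 5.62e-05). *Igfbp4* was at 25.2 to 273 CPM and 190.3 to 440 CPM in those classes, and *Igfbp3*, which is among the members counted for both, had 2 UMIs in 1 library of each class and 0 in the other libraries used. The osteoblast-lineage call of *Igfbp3* was lost in 10 of 20 alternatives, among them the omission of Tom+ steady-state replicate 1 or 2, Tom+ injured replicate 2 or Tom-GFP+ injured replicate 1 (adjusted p 0.0568 to 0.364), and by graph clusters the value was 0.64. The chondrocyte-lineage call was lost in 4 of 20, among them without Tom+ steady-state replicate 2 (adjusted p = 0.103). With cells named by graph clusters, *Igfbp5* was not called in chondrocyte-lineage cells (−0.48, adjusted p = 0.419) nor *Igfbp4* in osteoblast-lineage cells (−0.59, adjusted p = 0.1703). The osteoblast-lineage cluster is the one of 345 cells that included sublining-gated cells. Their *Igfbp7* levels, 1450 to 6481 and 1956 to 3178 CPM, did not differ from the remaining sublining cells beyond the spread (−0.28 ± 0.26 and −0.59 ± 0.28, adjusted p = 0.474 and 0.192). Mural cells had 7197, 8777 and 9932 CPM of *Igfbp7*, a median above that of each other class named here, although the difference from the remaining sublining cells did not pass the test (0.69 ± 0.30, adjusted p = 0.102). For 3 of 7 members mural cells were lower, where 11.3% of all genes were called lower, and their *Igfbp6* level of 8.89 to 11.4 CPM was no higher than the 10.6 to 12.6 CPM of immune cells. Immune cells gave the level of free RNA for *Igfbp7* at 12.6 to 17.7 CPM and for *Igfbp5* at 3.55 to 17.0 CPM. Tenocyte-lineage cells were higher for 1 of 7 members, where 3.61% of all genes were called higher. That member was *Igfbp3*, at 20.8 to 381.2 CPM (1.28 ± 0.39, adjusted p = 0.0255), and without Tom+ injured replicate 3, which held the 381.2 CPM, the value was 0.69 (adjusted p = 0.232). The call was also lost without the Tom-GFP+ steady-state library (0.0929) or Tom-GFP+ injured replicate 1 (0.114) and under DESeq2 (0.0708).

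**Figure D3:**
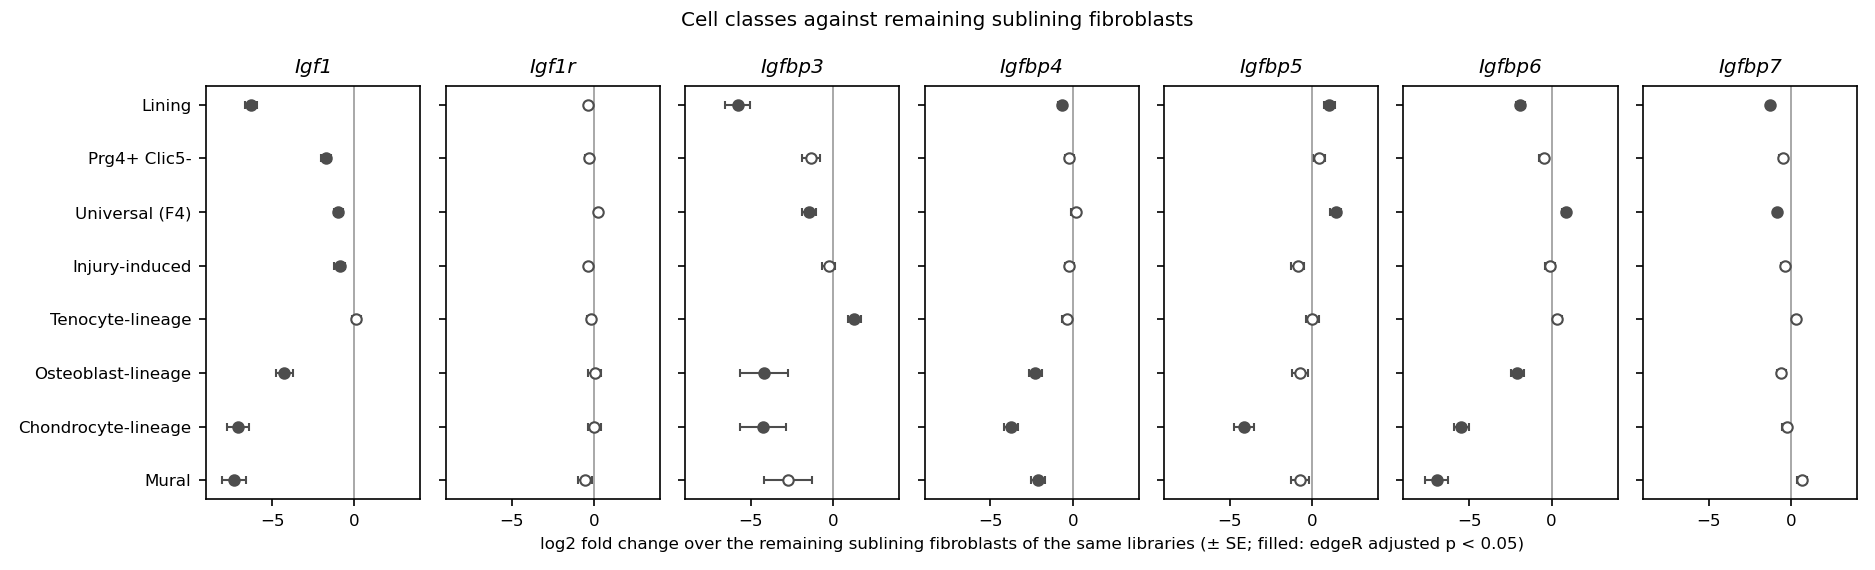
Log2 fold change (± SE) of 7 members in 8 cell classes over the remaining sublining fibroblasts of the same libraries, with filled points where the edgeR adjusted p was below 0.05. *Igf1* is lower in 7 of the 8 classes with a filled point, *Igf1r* has no filled point, and *Igfbp5* is higher in lining (1.04) and universal cells (1.43) while *Igfbp6* is lower in the first (−1.91) and higher in the second (0.89).

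After injury 3 binding proteins fell in Tom+ sublining fibroblasts, and no member rose by the test. *Igfbp5* was at 1266 and 1617 CPM in steady state and at 284, 367.7, 427.7 and 625.6 CPM after injury. All 4 injured libraries lay below both steady-state libraries (−1.79 ± 0.38, adjusted p = 0.0194). *Igfbp6* was at 4317 and 5201 CPM in steady state and at 1034, 1457, 2890 and 2378 CPM after injury. The groups did not overlap, and injured replicate 1 was the lowest (−1.32 ± 0.37, adjusted p = 0.0461). *Igfbp3*, the principal carrier of IGFs in serum, was at 65.6 and 64.7 CPM in steady state and at 13.5, 26.2, 9.02 and 32.7 CPM after injury. Its groups did not overlap either, and replicate 3 was the lowest (−1.71 ± 0.44, adjusted p = 0.0356). Thus 3 of 8 tested members were called lower, where 7.73% of 12542 genes were. The median log2 fold change of the 8 members was −0.85, beside −0.03 over all genes tested. The 8 include a sparse gene, *Igf2* or *Igfbp2*, for which no fold is given, so that median rests partly on a gene near 0 CPM. In Tom-GFP+ sublining fibroblasts the median of the tested members was 0.09, beside −0.04 over all genes.

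*Igfbp4* and *Igfbp7* lay higher in every Tom+ injured library without passing the test. *Igfbp4* was at 1143 and 602.5 CPM in steady state and at 1170, 2174, 1917 and 2604 CPM after injury. Injured replicate 1 was only just above steady-state replicate 1, and the log2 fold change was 1.14 ± 0.38 (adjusted p = 0.0778). It was called under DESeq2 (adjusted p = 0.0164) and without injured replicate 1 (1.33, adjusted p = 0.0201) or cycling cells (1.29, adjusted p = 0.0286). In all, 5 of 20 alternatives called it and 15 did not, and its value ran from 0.38 to 1.68. *Igfbp7* was at 2598 and 2941 CPM in steady state and at 2946, 4171, 5083 and 4061 CPM after injury (0.52 ± 0.24, adjusted p = 0.164). Replicate 1 was again next to the steady-state values, whereas for *Igfbp6* it was the injured library farthest from them. It was the 1 injured library with the older form of the gene list and had the largest share of injury-induced cells (79.9%). The part of either in these values was not tested. Over 20 alternatives the *Igfbp7* value ran from 0.051 to 0.65, and the gene was called in 0. Altogether 5 of 7 members with a mean of at least 10 CPM did not overlap between the Tom+ groups, where 47.1% of all such genes did not.

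These falls rested on few libraries. Without either Tom+ steady-state library none of the 3 was called (adjusted p 0.0881 to 0.213), with log2 fold changes of −1.19 to −1.95. *Igfbp3* also lost its call without injured replicate 2 (0.0588) or 3 (0.0562), *Igfbp5* without replicate 2 (0.0526) and *Igfbp6* without replicate 2 (0.106) or 4 (0.0520), with 1 marker more for every gate (0.0559) and without the cells of highest Scrublet score (0.0542).

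The make-up of the sublining gate differed between the states, and its part in these values was not tested beyond the following. Injury-induced cells were 0.301 to 0.851% of Tom+ sublining cells in steady state and 45.0 to 79.9% after injury, while universal fibroblasts were 35.7 to 38.3% and 15.2 to 26.3%. Fewer cells that express a gene and less RNA in each cell cannot be told apart in these sums. With injury-induced cells left out, *Igfbp3* (−1.34, adjusted p = 0.0260) and *Igfbp5* (−0.87, adjusted p = 0.0300) were still called, *Igfbp6* was not (−1.02, adjusted p = 0.0526) and *Igfbp4* was called higher (1.31, adjusted p = 0.0434). The *Igfbp5* value is then less than the full one by more than 1.5 times. Summed over lists of 7 and 8 markers, lining markers in the sublining sums were at 490 to 630.5 CPM in Tom+ steady state and 824.4 to 1936 after injury, tenocyte-lineage markers at 189.1 to 238.1 and 240.1 to 618, and immune markers at 3.54 to 25.4 and 5.09 to 50.6, with 1 to 5 of the 8 immune markers detected. Adipocyte markers were at 117.4 to 139 and 10.8 to 108.4 CPM, Schwann cell markers at 20.8 to 25.8 and 5.90 to 20.5, mural markers at 21.9 to 25.8 and 25.2 to 55.2, and cycling markers at 1.42 to 1.53 and 37.2 to 504.6.

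By cells, the share with an *Igfbp5* UMI was 67.7 to 74.4% of Tom+ sublining cells in steady state and 40.2 to 55.7% after injury, although injured cells were deeper. Thinned to 5000 UMIs a cell, the shares were 65.8 to 70.5% and 26.6 to 47.1%, with 80 and 50 shallower cells left out. *Igfbp4* went the other way, from 69.6 to 77.4% of cells to 97.2 to 99.7% (61.4 to 75.7% and 89.7 to 99.6% thinned). Nearly every sublining cell had an *Igfbp6* UMI in both states (97.9 to 99.1% and 94.8 to 99.5%), so the share of cells with a UMI differed little beside the difference in CPM. In immune cells the share with a UMI was 4.00 to 15.6% for *Igfbp5* and 9.09 to 12.0% for *Igfbp6* at median depths of 6547 to 10049 UMIs.

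Inside the narrower gate of universal fibroblasts, *Igfbp6* fell and *Igfbp7* rose with injury. This test took all cells of the universal gate, those also in the injury-induced gate included. *Igfbp6* was at 6099 and 6942 CPM in Tom+ steady state and at 1839, 2168, 3842 and 3431 CPM after injury. Every injured library was below both steady-state ones (−1.25 ± 0.31, adjusted p = 0.0375), 1 of 7 tested members called lower where 4.51% of 9409 genes were. *Igfbp7* was at 1720 and 1641 CPM in steady state and at 3191, 3262, 4316 and 2875 CPM after injury. Every injured library was above both (0.98 ± 0.24, adjusted p = 0.0334), 1 of 7 called higher where 2.72% of genes were. *Igfbp5* was at 2125 and 2113 CPM in steady state and at 588.8, 661.6, 1008 and 1311 CPM after injury, also without overlap, but was not called (−1.28 ± 0.40, adjusted p = 0.0789). The calls of *Igfbp6* and *Igfbp7* were lost without either steady-state library (adjusted p 0.1704 to 0.233) and without injured replicate 2 (0.0984 and 0.0686), and that of *Igfbp7* also without replicate 3 (0.0719). *Igfbp6* was not called when cells were named by graph clusters (−0.56, adjusted p = 0.166).

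The universal sums held different shares of cells that matched the injury-induced gate better. Of 84 and 127 universal cells in Tom+ steady state 83 and 127 were not better matched to that gate, and of 80, 53, 51 and 73 after injury 25, 38, 36 and 62 were not. Such cells could still pass the injury-induced gate, with a smaller share of its markers. Summed injury-induced markers were at 23.1 to 35.5 CPM in the full universal sums of Tom+ steady state and at 1895 to 5384 CPM after injury. In the universal cells not better matched to the injury-induced gate *Igfbp6* was at 5877 and 6942 CPM in steady state and at 3372, 2766, 4165 and 3372 CPM after injury. *Igfbp7* was at 1694 and 1641 CPM and then 2728, 3314, 4386 and 2573 CPM. Neither gene overlapped between the groups. *Igfbp5* was at 2035 and 2113 CPM and then 1713, 1080, 1584 and 1418 CPM. The edgeR test was run on a stricter set, from which every universal cell that passed the injury-induced gate was left out. *Igfbp6* (−0.90, adjusted p = 0.0203) and *Igfbp7* (0.93, adjusted p = 0.0382) were still called in that set. *Igfbp5* was not (−0.44, adjusted p = 0.391), and *Igfbp4* was called higher (1.33, adjusted p = 0.0344).

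In Tom+ lining fibroblasts *Igfbp6* was the 1 member called, and that call was lost in 8 of 19 alternatives. It was at 652.4 and 993.1 CPM in steady state and at 384, 348.6, 450.2 and 474.2 CPM after injury, with no overlap (−0.96 ± 0.20, adjusted p = 0.0263). That was 1 of 7 tested members, where 2.48% of 9131 genes were called lower. *Igfbp5* was at 2757 and 2729 CPM in steady state and at 669.5, 1283, 621.8 and 1511 CPM after injury. Its 4 injured values lay below both steady-state values, and it missed the threshold narrowly (−1.38 ± 0.35, adjusted p = 0.0525), while DESeq2 called it (0.00746), as did edgeR without injured replicate 1 (0.0465) or 4 (0.0393); in all, 12 of 19 alternatives called it. *Igfbp4* was at 1503 and 922.2 CPM in steady state and at 866.4, 996.8, 1105 and 1347 CPM after injury, with overlap (−0.12 ± 0.24, adjusted p = 0.828). *Igfbp7* was at 358.7 and 2433 CPM in the 2 steady-state libraries, and the injury difference hung on them: 0.69 ± 0.50 (adjusted p = 0.488) with both, −0.056 (0.938) without replicate 1 and 2.73 (0.00368) without replicate 2. The steady-state lining sums rest on 19 and 28 cells, and tenocyte-lineage markers were at 310.9 and 1596 CPM in them against 28.8 to 129.3 CPM after injury. Mural markers were at 376 to 450.9 and 202.6 to 263.9 CPM, and Schwann cell markers at 153.7 to 235.7 and 38.0 to 104.3 CPM. The part of these cells in the values was not tested. Without steady-state replicate 2 the *Igfbp6* value was −0.56 (adjusted p = 0.294), and it was not called either without steady-state replicate 1 or injured replicate 2 or 3 (0.0506 to 0.0534), by graph clusters (−0.81, 0.0691), with the replicate block (−1.13, 0.0511), with the gene-list format as a term (−1.11, 0.140) or in older-format libraries (−1.10, 0.134).

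**Figure D4:**
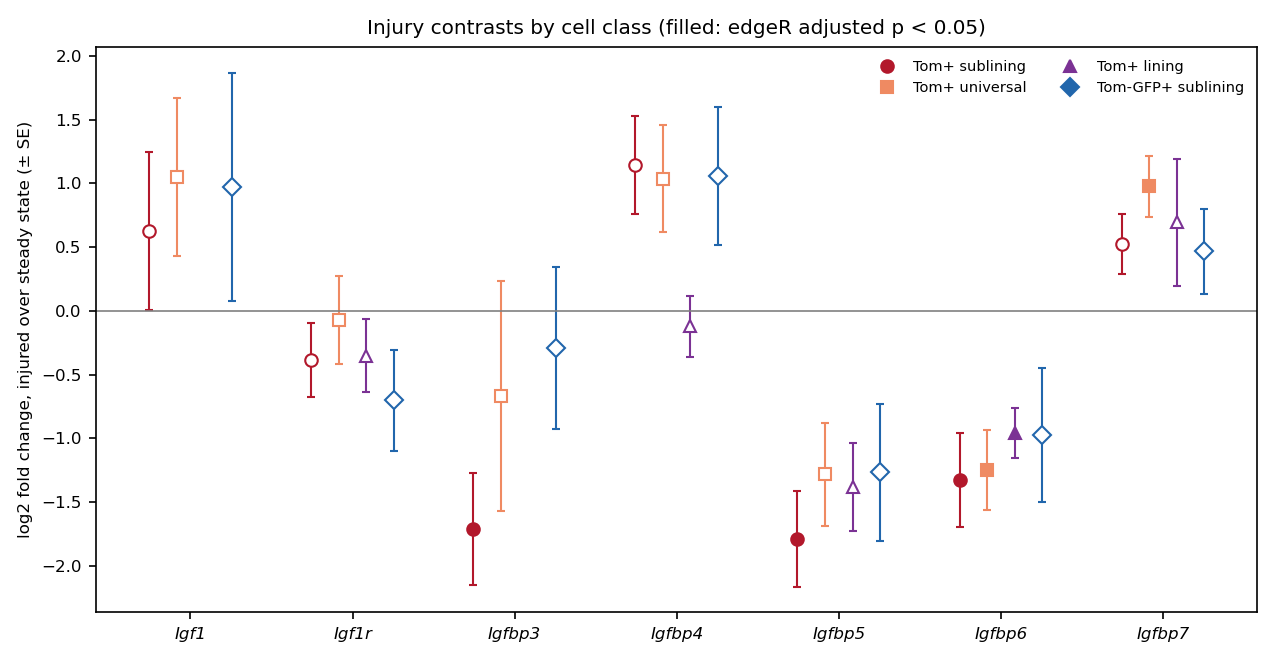
Log2 fold change (± SE) of 7 members, injured over steady state, in Tom+ sublining, universal and lining fibroblasts and in Tom-GFP+ sublining fibroblasts, with filled points where the edgeR adjusted p was below 0.05 (*Igf1* and *Igfbp3* in lining cells are left out because their levels were near 0). *Igfbp6* is below 0 in all 4 contrasts, from −1.32 to −0.96, and *Igfbp7* is above 0 in all 4, from 0.47 to 0.98.

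In the non-*Gdf5* lineage no member was called. Of 8 tested members in Tom-GFP+ sublining fibroblasts, edgeR called 0, where 1.4% of genes were called, DESeq2 called 0 and 1 had an unadjusted p below 0.05. *Igfbp5* was at 1484 CPM in steady state and at 366.3 and 876.4 CPM after injury, both injured libraries lower (−1.27 ± 0.53, adjusted p = 0.223). That value was −0.71 (adjusted p = 0.574) without injured replicate 1 and −2.02 (adjusted p = 0.118) without injured replicate 2, and the gene was called with no filter on low counts (0.00711) and with the replicate block (−1.71, adjusted p = 0.0492). *Igfbp6* was at 3495 CPM and then 1498 and 2097 CPM, again both lower (−0.97 ± 0.53, adjusted p = 0.330). *Igfbp4* was at 1019 CPM and then 1706 and 2576 CPM, both higher (1.06 ± 0.54, adjusted p = 0.307). *Igfbp3* was at 43.3 CPM and then 26.03 and 46.6 CPM, on either side of the steady-state value (−0.29 ± 0.63, adjusted p = 0.827). With 1 steady-state library the test assumes that it varies like the other groups.

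The injury effect was also compared between the lineages directly. For the difference of the effects, edgeR called 0 of 8 members, where 0% of genes were called, DESeq2 called 0 and 0 had an unadjusted p below 0.05. The largest difference among members above 10 CPM was that of *Igfbp3* (−1.42 ± 0.80 on the log2 scale, more negative in Tom+) and the next that of *Igfbp5* (−0.52 ± 0.68). Between Tom+ and Tom-GFP+ injured sublining fibroblasts 0 of 8 members were called by edgeR, where 0.0239% of genes were, and 0 by DESeq2, with 1 at an unadjusted p below 0.05. That member was *Igfbp7*, at 2946 to 5083 CPM in Tom+ and at 2637 and 2856 CPM in Tom-GFP+ libraries, so that the groups did not overlap (0.59 ± 0.24, adjusted p = 0.838). In steady state 0 of 8 were called by edgeR, where 0.0797% of genes were, and 0 by DESeq2, with 0 at an unadjusted p below 0.05.

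The wider pathway was read from a list of 29 genes: other binding proteins, receptors, adaptors, proteases and their inhibitors, mediators of growth hormone signalling and imprinted growth genes. In Tom+ sublining fibroblasts 23 of them were tested, of which 5 rose with injury, where 5.41% of all genes did, 1 fell, where 7.73% did, and 17 did not pass the test. Their median log2 fold change was −0.04, beside −0.03 over all genes. *H19* rose most: 5.08 and 11.0 CPM in steady state, and 166.9, 279.7, 90.5 and 294.6 CPM after injury. Its groups were far apart (4.62 ± 0.59, adjusted p = 0.00326), and in the same cells *Igf2*, its neighbour in the imprinted domain, stayed at or under 2.97 CPM. *Plagl1*, an imprinted zinc-finger gene, was at 12.2 and 16.3 CPM and then 41.2, 61.8, 26.02 and 49.0 CPM (1.60 ± 0.35, adjusted p = 0.0211). *Socs2*, a feedback inhibitor of growth hormone signalling, was at 40.7 and 43.2 CPM and then 86.0, 129.8, 79.8 and 130.6 CPM (1.31 ± 0.35, adjusted p = 0.0415). Injured libraries were above both steady-state libraries for each of these genes.

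*Grb10*, an imprinted adaptor that restrains signalling from the insulin and IGF1 receptors, was at 89.0 and 96.2 CPM in steady state and at 159.4, 178.8, 144.7 and 212.3 CPM after injury (0.88 ± 0.24, adjusted p = 0.0427). *Igf2r*, the receptor that clears IGF2, was at 42.7 and 29.0 CPM and then 56.8, 72.1, 53.4 and 69.7 CPM (0.79 ± 0.22, adjusted p = 0.0462). Neither gene overlapped between the groups. *Foxo1*, a transcription factor that insulin and IGF signalling keeps out of the nucleus, was the 1 gene that fell, from 36.6 and 59.4 CPM to 14.9, 20.5, 20.8 and 19.8 CPM (−1.38 ± 0.28, adjusted p = 0.0169). All 4 injured libraries were below both steady-state ones. Over 20 alternatives of every kind, the call was lost in 9 for *Igf2r*, 7 for *Grb10* and 6 for *Socs2*. It was lost in 2 for *Plagl1*, 2 for *Foxo1* and 0 for *H19*. Losses with 1 library left out were as follows. *H19* kept its call without each of the 6 Tom+ libraries in turn, and *Foxo1* lost it without steady-state replicate 2 (−0.99, adjusted p = 0.155). The other 4 genes lost theirs without steady-state replicate 1 or 2 (adjusted p 0.0878 to 0.280), and *Socs2*, *Grb10* and *Igf2r* also without injured replicate 2, 3 or 4 (0.0521 to 0.0867).

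**Figure D5:**
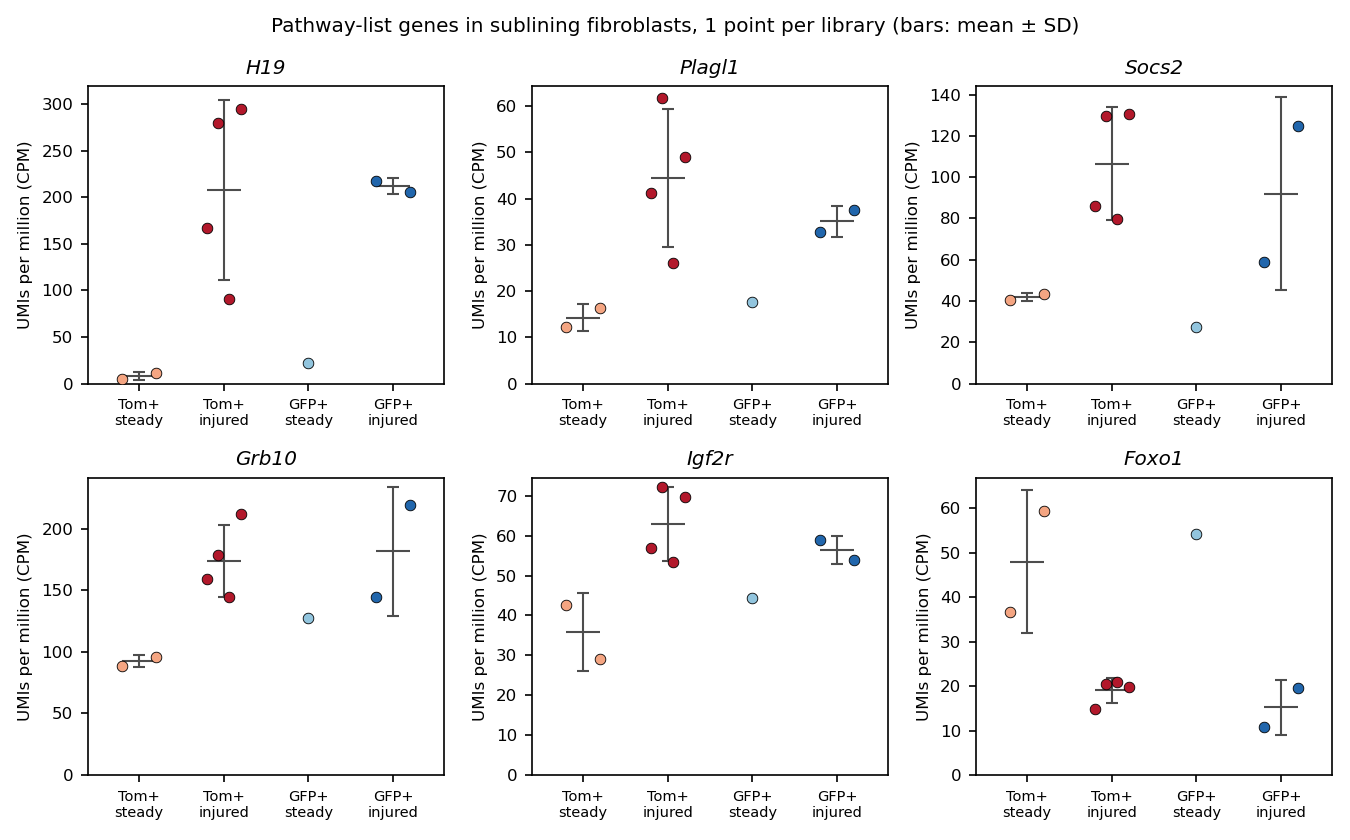
Level (CPM) of the 6 pathway-list genes called in Tom+ sublining fibroblasts, with 1 point for each of the 9 libraries and bars for the mean and SD of a group, where GFP+ on the axis stands for Tom-GFP+. *H19* goes from 5.08 and 11.0 CPM to between 90.5 and 294.6 CPM in Tom+ cells and from 22.0 to 218.1 and 206.4 CPM in Tom-GFP+ cells, and *Foxo1* is lower in every injured library of either lineage.

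In Tom-GFP+ sublining fibroblasts 0 of 23 pathway genes were called by edgeR, 4 had an unadjusted p below 0.05, and DESeq2 called 3. *H19* was at 22.0 CPM in steady state and at 218.1 and 206.4 CPM after injury (3.25 ± 0.74, adjusted p = 0.0658), and *Foxo1* at 54.1 CPM and then 10.9 and 19.6 CPM (−1.89 ± 0.39, adjusted p = 0.0542). Both injured libraries lay on the same side for each gene. In universal fibroblasts 2 of 18 genes rose, where 2.72% of all genes did: *H19*, from 10.3 and 8.27 CPM to 75.5, 189.6, 129 and 200.7 CPM (3.96 ± 0.52, adjusted p = 0.00274), and *Socs2*, from 36.0 and 31.4 CPM to 68.8, 138.6, 89.7 and 101.5 CPM (1.52 ± 0.39, adjusted p = 0.0429). *H19* kept its call without any 1 library there, and *Socs2* lost it without each of the libraries but injured replicate 1 (adjusted p 0.0571 to 0.265). In lining fibroblasts 1 of 15 rose, where 1.07% of all genes did. It was the IGFBP protease *Htra1*, from 454.3 and 865.4 CPM to 1430, 1657, 2529 and 1938 CPM (1.55 ± 0.30, adjusted p = 0.0193). Its groups did not overlap, and without steady-state replicate 1 the value was 1.20 (adjusted p = 0.168).

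Among cell classes, 13 of 21 tested pathway genes were lower in the lining than in remaining sublining cells, where 22.4% of all genes were, and 3 were higher, where 18.2% were. *Foxo1* was higher (3.08 ± 0.20, adjusted p = 9.40e-19), and *Cdkn1c* (−6.24), *Mest* (−5.16), *H19* (−4.15), *Grb10* (−1.95) and the growth hormone receptor gene *Ghr* (−1.27) were lower. Mural cells had 8 lower, where 11.3% of all genes were, and 2 higher, where 8.62% were, with the imprinted gene *Dlk1* at 8.63 ± 0.86 above (adjusted p = 5.18e-11). Chondrocyte-lineage cells had 4 higher, where 11.4% of all genes were, and osteoblast-lineage cells had 2, where 4.98% were. *Stc2*, an inhibitor of PAPP-A, was higher in chondrocyte-lineage (7.41 ± 0.61, adjusted p = 1.31e-14) and osteoblast-lineage cells (6.25 ± 0.82, adjusted p = 5.73e-08; 4.26 and 0.0683 without Tom+ steady-state replicate 2), and was called in mural cells too (4.67), where the value without Tom+ injured replicate 4 was −1.15 (adjusted p = 0.820). *Prg4*+ *Clic5*- cells had 4 lower, where 3.28% of all genes were, and 1 higher, where 1.89% were. The lower ones were *Mest* (−2.22), *Cdkn1c* (−1.29), *Ghr* (−0.80) and *Grb10* (−0.48), all of them also lower in lining cells, and the higher one was *Htra1* (0.90). In steady-state libraries alone *Mest* and *Cdkn1c* were not called in these cells (adjusted p = 1 for both). Of these, *Ghr* lost its call without Tom+ injured replicate 2 (adjusted p = 0.121), *Htra1* without Tom+ injured replicate 2, 3 or 4 or Tom-GFP+ injured replicate 2 (0.0532 to 0.142), and *Grb10* without Tom+ steady-state replicate 1 or any 1 injured library (0.0523 to 0.276). Tenocyte-lineage cells had 1 higher, where 3.61% of all genes were: *Mest* (1.91), which under graph clusters was 0.32 (adjusted p = 0.840).

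The genes with the most similar pattern are given for 6 members over 70 class sums of at least 10 cells (11 classes, 9 libraries) by Pearson's r of log2 (CPM + 1). These sums share libraries, depth and cells of origin, so r is a description. *Igf1* was most like *Col14a1* (r = 0.88) and *AW551984* (0.85), and *Igfbp3* like *Sfrp2* (0.79) and *Il33* (0.79). *Igfbp4* was most like *Fstl1* (0.86) and *Lamb1* (0.85), *Igfbp5* like *Ebf1* (0.86) and *Prss23* (0.86), *Igfbp6* like *Pdgfra* (0.86) and *Adamts5* (0.86), and *Igfbp7* like *Cnn3* (0.90) and *Wwtr1* (0.88). Among the members themselves the highest r was 0.71, between *Igf1* and *Igfbp6*, and *Igf1* with *Igf1r* gave 0.06.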

How the data were processed

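UMIs were read from the 9 deposited count matrices. The authors deposited whole UMI counts per gene and barcode, not normalized, made from 10x Genomics 5′ libraries against the GRCm38 mouse genome with tdTomato and GFP added to the feature list. Headers of 5 libraries name Cell Ranger 3.0.2, and the version behind the other 4 is not given in the sources used here.

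Barcodes were kept from 500 genes and 1000 UMIs upwards if mitochondrial UMIs made up 10% or less. Among the lining, skeletal, tenocyte, mural, immune and other non-sublining lists, a cell joined the class of which it expressed the largest share of markers. At least 50% of that list had to be detected, and ties were left out. *Prg4*+ *Clic5*- cells were then taken from unassigned cells and from lining-list cells without *Clic5* and *Tspan15*. Sublining cells were those still unassigned with 50% or more of their list, so *Thy1* was not required. Universal and injury-induced cells were gated within them. Doublets stayed in, and leaving out the 5% of cells with the highest Scrublet scores was an alternative. Counts were summed by library and class over at least 10 cells and tested with the quasi-likelihood test of edgeR 4.0.16 in R 4.3.3, with filterByExpr, TMM and Benjamini-Hochberg adjustment over all genes tested. The threshold was an adjusted p of 0.05, and ± marks the SE of a log2 fold change. State and lineage contrasts used the mean of each group, and class contrasts had the library as a block. The tests were first run on simulated counts.

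Alternatives were stricter and looser cell filters, gates of 1 marker more, graph clusters (Seurat 5.3.0), cycling cells left out, DESeq2 1.42.0, RLE scaling, no filter on low counts, the replicate block, the gene-list format as a term, libraries of 1 state, and each library left out. Gates on thinned cells, sublining without injury-induced cells and older-format libraries alone were added after the data were seen.

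The text names all 9 members, at most 6 called genes of the pathway list in each comparison and the 2 genes most like each member with a mean of at least 10 CPM; those of *Igf1r* are not reported here. The members and lists were chosen with earlier results of these data known.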

Additional observations from a re-analysis of the deposited data

Results flagged for a closer look

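Across genes and classes, 50 groups of at least 4 libraries were screened for a library far from the others, and 2 stood apart, where chance gives about 1 in 20. In sublining fibroblasts of the 4 Tom+ injured libraries, *Foxo1* was lowest in replicate 1 at 14.9 CPM, with the next library at 19.8 CPM. In universal fibroblasts of the same group, *Igf1r* was highest in replicate 2 at 40.5 CPM, with the next at 24.2 CPM. No difference of injury effect between the lineages passed the test for a member.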

How the results depend on the processing

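Over the alternatives tried, called members kept direction and side of the threshold in 546 of 635 values, lost the call in 87 and turned in 2; members not called stayed so in 293 of 335, gained a call in 33 and turned in 9. Called pathway genes kept both in 654 of 787, lost the call in 129 and turned in 4. The causes were not tested.

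Matches between Tom+ and Tom-GFP+ libraries are not named in the labels, and the replicate block pairs libraries by number alone. Deviations from group means correlated at 0.04 and 0.13 between the Tom+ states and at 0.34 and 0.24 between the injured lineages. The replicate block gave 1613 genes in place of 1647 in Tom+ sublining, 525 in place of 176 in Tom-GFP+ sublining, 138 in place of 324 in lining and 8 in place of 3 between the injured lineages; *Igf1* in Tom+ sublining turned to −0.13.

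Tom+ sublining counts moved to 894 without injury-induced cells, 2929 without the filter on low counts and 2535 in older-format libraries (215 to 1948 with 1 library left out). Tom-GFP+ sublining gave 346 without cycling cells, 506 by DESeq2, 1718 without the filter and 502 with format as a term (10 to 32). The difference between lineages gave 8 by DESeq2 and 75 without the filter (0 in each left-out fit). Injured lineages gave 5 by graph clusters or with format, 53 by DESeq2 and 425 without the filter (1 to 14), and steady-state lineages, at 10, gave 2 with 1 marker more or thinned gates, 0 by clusters, 32 without injury-induced cells, 42 by DESeq2, 282 without the filter and 39 with format (0 in each left-out fit). Lining injury gave 1027 without the filter, 56 with format and 72 in older-format libraries (32 to 495). Universal injury, at 680, gave 338 with 1 marker more, 326 by clusters, 453 with thinned gates, 1539 without the filter and 1688 in older-format libraries (108 to 829).

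Between classes, steady-state libraries alone gave 1198 in place of 4019 in lining, 1 of 512 in *Prg4*+ *Clic5*- cells, 492 of 1044 in universal, 1223 of 2937 in chondrocyte-lineage, 596 of 1294 in osteoblast-lineage and 177 of 939 in tenocyte-lineage cells. Injured libraries alone gave 535 in universal and 694 in osteoblast-lineage cells. Thinned gates gave 1215 in *Prg4*+ *Clic5*-, 1595 in universal and 281 of 1156 in injury-induced cells. *Prg4*+ *Clic5*- cells also gave 1613 by clusters and 953 without the filter, and tenocyte-lineage cells 613 with 1 marker more. With 1 library left out the counts were 298 to 615 in *Prg4*+ *Clic5*-, 541 to 1122 in injury-induced and 843 to 1424 in osteoblast-lineage cells.

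The format term was set by Tom+ injured replicate 1 alone, also for Tom-GFP+ cells, in which format coincides with injury. *Igf1* with injury turned to −0.55 (format) and −0.49 (older-format libraries) in Tom+ sublining, −0.45 and −0.38 in universal and −0.46 (format) in Tom-GFP+ cells, where leaving out 1 library gave −0.39 to 1.72. That range was −0.056 to 2.73 for *Igfbp7* in lining injury and −1.04 to 0.26 for *Igfbp5* between lineages. *Igfbp4* in lining was 0.38 in steady-state libraries, *Igfbp3* in osteoblast-lineage cells 0.64 by clusters, and *Stc2* in mural cells −1.15 with stricter cell filters, −1.90 with 1 marker more, −2.17 with thinned gates and −1.15 to 5.99 with 1 library left out. The depth limits are the 14% recovery of 2-fold changes in Tom+ sublining and the few UMIs of *Igf2* and *Igfbp2*.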

Other observations

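Tenocyte-lineage cells, which were not compared between states by a test, held more *Igfbp5* and *Igfbp6* in both steady-state libraries used than in each injured library. The libraries used were Tom+ replicate 2 (33 cells) and the Tom-GFP+ one (22 cells), because Tom+ replicate 1 had only 6 cells. The share of all genes that separate in this way was not counted in these cells. Between the Tom+ sublining groups it was 47.1% of genes with a mean of at least 10 CPM. *Igfbp5* was at 2984 CPM in Tom+ steady-state replicate 2 and 1812 CPM in the Tom-GFP+ one, and at 145.5, 133.3, 1134 and 369.7 CPM in the Tom+ and 137.6 and 245.8 CPM in the Tom-GFP+ injured libraries. *Igfbp6* was at 7556 and 8509 CPM in those steady-state libraries and at 796.4 to 4642 CPM in the 6 injured ones. *Igfbp3*, by contrast, overlapped between the states: 135 and 224 CPM in steady state and 20.8 to 381.2 CPM after injury, the highest in Tom+ injured replicate 3.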
